A study of Mus musculus with 2 samples.

Results

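Arterial blood endothelial cells (BECs) of 2 orthotopic mouse tumors were described from single-cell counts of unique molecular identifiers (UMIs), in which each UMI stands for 1 captured transcript. They were chosen by the counts themselves. Barcodes were kept where 500 genes or more were detected and mitochondrial UMIs made up less than 10%. A blood endothelial gate then required at least 2 UMIs summed over Pecam1, Cdh5 and Egfl7, and at most 1 summed over Ptprc, Col1a2, Epcam, Mmrn1 and Notch3. Arterial cells had, in addition, at least 2 UMIs summed over the arterial markers Gja5, Sema3g and Fbln5, at most 1 over the venular genes Ackr1 and Selp, and at most 1 over the proliferation genes Top2a and Mki67. The rule found 766 arterial cells among 17556 gate cells of 22700 barcodes.

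The KPC library came from tumors of a pancreatic line of that name, and the PyMT library from tumors of a mammary line. In each model 100000 tumor cells were implanted orthotopically into wild-type female C57BL6 mice that were 6 weeks old, and tumors were digested 10 days later with different collagenase D concentrations in the 2 models. Cells carrying CD45, EpCAM, Ter119, podoplanin or Annexin V were depleted before BECs were sorted. There was 1 library per model and no normal tissue, so tumor model and library cannot be told apart, no difference between samples could be tested, and every interval below is a 95% interval for counting error only.

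Arteries carry blood under high pressure, and their endothelium is known for Notch signaling, in which ligands such as Dll4 and Jag1 on a cell activate receptors on its neighbor and switch on targets such as Hey1. Transcription factors of the SoxF family, Sox17 among them, act in the same arterial program. Arterial endothelial cells are also coupled through gap junctions built from connexins and rest on a wall rich in elastic fibers.

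In KPC, 299 of 7204 gate cells were arterial, a share of 4.15% (exact binomial interval 3.70 to 4.64). In PyMT, 467 of 10352 were, a share of 4.51% (4.12 to 4.93). The intervals overlapped, but the order of the libraries depended on the rule. With at least 3 marker UMIs the shares were 2.78% in KPC and 2.15% in PyMT. With UMIs of at least 2 marker genes they were 2.00% and 1.36%. Other settings kept PyMT higher, among them limits of 1000 genes and 5% mitochondrial UMIs (3.55% in KPC and 4.08% in PyMT). Arterial cells held 777539 UMIs in KPC and 1951684 in PyMT, of library totals of 44441942 and 55547926. Their median depth was 1951 UMIs per cell in KPC, against 2983 in the other gate cells, and 3423 against 4025 in PyMT. The arterial cells were thus the shallower ones in both libraries, with median mitochondrial shares of 2.90% against 2.49% in KPC and 3.32% against 2.83% in PyMT. No arterial barcode occurred in both libraries, which shared 170 barcodes in all.

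The markers that admitted a cell differed between the libraries. In KPC 144 arterial cells (48.2%) had UMIs of at least 2 of the 3 marker genes, and 139 (46.5%) had Fbln5 alone. In PyMT these were 141 cells (30.2%) and 286 cells (61.2%). Fbln5, which encodes the elastic fiber protein fibulin-5, was therefore the sole marker of most PyMT members. Gja5, the gene of connexin 40, was the sole marker in 9 KPC and 34 PyMT cells, and Sema3g, a secreted semaphorin, in 7 and 6. Just inside the threshold stood the 99 KPC and 244 PyMT members with exactly 2 marker UMIs, and just outside it the 400 and 1132 cells with 1.

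Levels below are CPM, the UMIs of a gene per 1000000 UMIs summed over a class of cells, with exact Poisson intervals in the plots, and differences are log2 ratios of CPM with the exact interval in parentheses. Genes were compared where they reached 5 CPM over all gate cells, leaving out the 15 rule genes, and a gene counted as higher or lower from a 2-fold ratio on, a log2 ratio of at least 1 or at most -1. The label of the cells was checked with arterial genes outside the rule. Because the members were selected on transcripts of these cells, the comparison with the remaining gate cells is a description.

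Gja4 encodes connexin 37, a gap junction protein of arterial endothelium, and lies on chr4 (127311421 to 127314039, minus strand, GRCm38). It stood at 1390 CPM in the arterial cells of KPC against 96.2 in the other gate cells, and at 670 against 64.7 in PyMT. The log2 ratios were 3.85 (3.75 to 3.96) and 3.37 (3.28 to 3.47). Gja4 UMIs were found in 63.5% of arterial cells in KPC and 42.6% in PyMT, against 2.73% and 2.98% of venular cells, whose median depths were 3654 and 3281 UMIs. Capillary cells, described below, were nearer, at 20.0% and 14.2%, and all other gate cells together were at 14.0% and 11.2%. The order was the same at equal depth. With each cell thinned to 2000 UMIs, which kept 148 arterial cells in KPC and left out 151, and kept 366 in PyMT and left out 101, the arterial shares were 64.2% (55.9 to 71.9) and 37.7% (32.7 to 42.9), against 19.9% and 9.76% of capillary cells and 2.32% and 2.03% of venular cells.

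The promoters of Gja4 and of the Notch ligand Jag1 are shown because both genes stood at least 2-fold higher in the arterial cells of both libraries and both hold the core letters that SoxF factors bind. The sequences are those of RefSeq on GRCm38.p6, from 250 bases before to 50 bases after the gene start, written 5′ to 3′ along the gene. Capitals mark ACAAT, or its reverse complement. Gja4 is taken from chr4:127313990-127314289 and Jag1 from chr2:137116471-137116770, both on the minus strand.
Gja4: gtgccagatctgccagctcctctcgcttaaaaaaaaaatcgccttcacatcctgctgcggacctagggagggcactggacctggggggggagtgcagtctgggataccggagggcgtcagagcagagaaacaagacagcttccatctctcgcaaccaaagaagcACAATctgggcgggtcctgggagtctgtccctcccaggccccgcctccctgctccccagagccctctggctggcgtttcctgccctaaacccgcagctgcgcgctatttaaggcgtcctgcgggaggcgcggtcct
Jag1: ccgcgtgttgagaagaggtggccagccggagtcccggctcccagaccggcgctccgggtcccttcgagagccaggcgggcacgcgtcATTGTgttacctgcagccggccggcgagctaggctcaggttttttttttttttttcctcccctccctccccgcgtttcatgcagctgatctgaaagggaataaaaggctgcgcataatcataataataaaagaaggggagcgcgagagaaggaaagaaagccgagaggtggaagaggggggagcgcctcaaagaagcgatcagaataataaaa
The capitals begin 86 bases before the start in Gja4 and 163 bases before it in Jag1, where they stand on the opposite strand. For Jag1 the RefSeq start used here lies inside the gene span of the annotation given below, which reaches further upstream, so these distances hold for the RefSeq starts. These letters are common: ACAAT occurred on either strand of 31.0% of the 32851 mouse promoters in the same table, in 2 of 12 promoters of the 9 genes that matched it among the 15 highest genes described below, and in 4 of 10 promoters of the 8 Notch ligand and target genes that matched it. TGGGAA, the core letters of the Notch effector RBPJ, occurred on either strand of 25.6% of all promoters and in 1 of those 10. It was not found in either promoter printed here. A match of letters is not a binding site.

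Of 9491 genes compared in KPC, 474 (4.99%) were higher and 739 (7.79%) lower in the arterial cells. Of 9068 in PyMT, 194 (2.14%) were higher and 245 (2.7%) lower. In 8905 genes compared in both libraries, 129 (1.45%) were higher in both and 153 (1.72%) lower in both. The median log2 ratio over all genes was 0.01 in KPC and 0.02 in PyMT, so the scale was close to centered. The filter covers all gate cells, arterial ones included, so a scarce gene could reach it through the arterial cells: 11 of the 129 genes, Dhh and Mmp2 among them, were under 5 CPM in the other cells of at least 1 library. The 15 genes highest in both libraries, ranked by the smaller of their 2 ratios, are plotted in the chart of the highest genes.

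**Figure D1:**
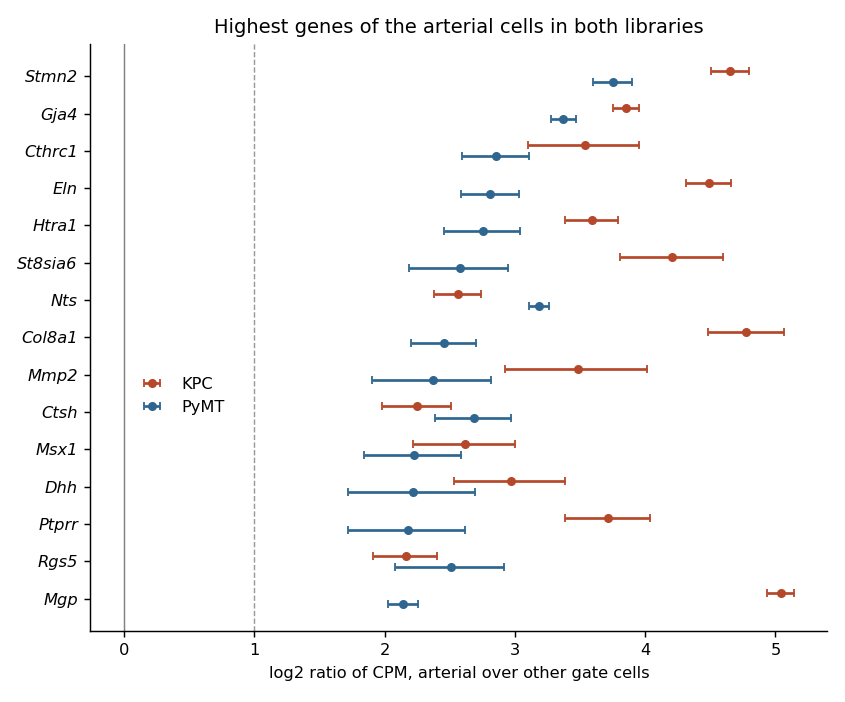
The 15 genes with the largest smaller log2 ratio across both libraries. Points are log2 ratios of CPM, arterial over other gate cells, in KPC (red) and PyMT (blue), bars are exact 95% intervals for counting error, and the dashed line is a 2-fold ratio. Every point lies above a log2 ratio of 2, and 9 genes (Stmn2, Gja4, Eln, Htra1, St8sia6, Col8a1, Mmp2, Ptprr and Mgp) lie farther right in KPC than in PyMT with intervals that do not overlap.

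Stmn2, a stathmin that regulates microtubules, led this ranking. It lies on chr3 (8509360 to 8561606, plus strand, GRCm38). Its level was 857 CPM in KPC arterial cells against 34.0 in the other cells, and 300 against 22.3 in PyMT. The log2 ratios were 4.65 (4.51 to 4.80) and 3.75 (3.60 to 3.90). Among the other 13 were secreted and cell surface proteins of several kinds. Nts, the precursor of the peptide neurotensin, stood at 379 CPM against 64.2 in KPC and at 976 against 107 in PyMT, and was the gene of these 15 with the largest excess of the PyMT ratio (3.18, 3.11 to 3.26) over that of KPC (2.56, 2.38 to 2.74). Its UMIs lay in 30 of 299 arterial cells in KPC (10.0%) and 130 of 467 in PyMT (27.8%), against 4.69% and 9.92% of other gate cells. Dhh, the ligand desert hedgehog, had log2 ratios of 2.97 and 2.22, the homeobox factor Msx1 2.62 and 2.22, and the secreted protease Htra1 3.59 and 2.75.

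Eln, Col8a1 and Mgp, 3 of the 15, belong to the list of elastic fiber and matrix proteins. Eln, which encodes elastin (chr5, 134702593 to 134747323, minus strand), stood at 561 CPM in KPC arterial cells against 25.01 in the others, a log2 ratio of 4.49 (4.31 to 4.66). In PyMT it stood at 112 against 16.0, a ratio of 2.81 (2.59 to 3.03). Mgp, matrix Gla protein, an inhibitor of calcification (chr6, 136872435 to 136875823, minus strand), had the highest ratio of the 15 in KPC, at 1912 CPM against 58.2 (5.04, 4.94 to 5.14), and the lowest of the 15 in PyMT, at 385 against 87.4 (2.14, 2.03 to 2.25). Summed over the class, both genes were above the other gate cells in both libraries, but by different factors. In PyMT 569 of the 752 Mgp UMIs of arterial cells were in the 62 cells with at least 6 marker UMIs. The 244 members with exactly 2 marker UMIs stood at 34.1 CPM of Mgp, below the 87.4 of the other gate cells. Of the list of elastic fiber and matrix proteins, 10 of the 17 compared in KPC were higher and 1 lower, and 5 of 11 in PyMT were higher and none lower, with medians of 1.66 and 0.89. The 5 that were higher in both were Eln, Col8a1, Mgp, the fibulin Fbln2 (1.66 and 2.33) and Ltbp4, which binds latent TGF-beta (1.69 and 1.46). Hmcn1 was the one lower in KPC, at -2.20. Fbln5, a rule gene, belongs to the same class of proteins. Lox, the enzyme that crosslinks elastin, was below the 5 CPM filter but stood at 47.6 CPM in KPC arterial cells against 1.23, and at 7.69 against 0.321 in PyMT.

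**Figure D2:**
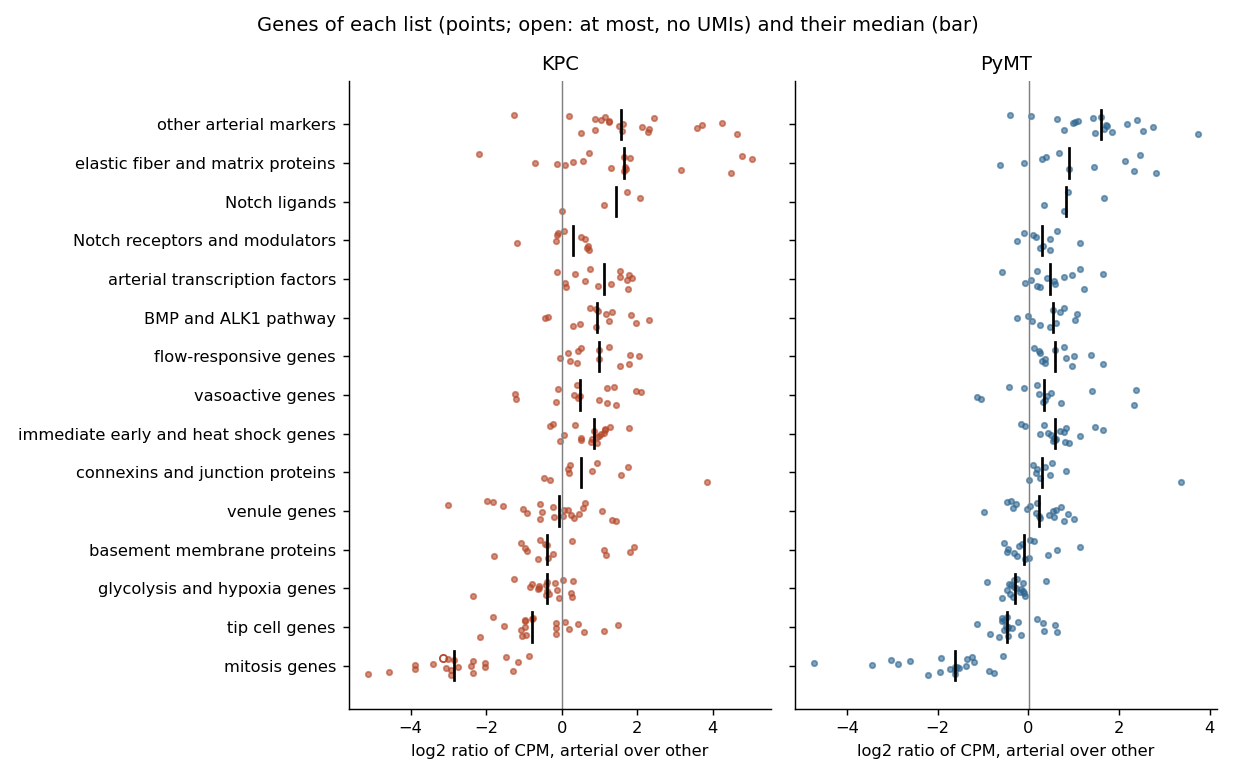
Log2 ratios of CPM, arterial over other gate cells, for the genes of 15 lists in KPC (left) and PyMT (right). Each point is a gene, open points are genes with no UMI in the arterial cells drawn at the ratio that 3 UMIs would give, and the black bar is the list's median, which is highest for elastic fiber and matrix proteins in KPC (1.66) and for other arterial markers in PyMT (1.61) and lowest for mitosis genes in both (-2.85 and -1.61).

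Further arterial markers outside the rule were mostly higher. Of the list, 15 of 20 genes compared in KPC were higher and 1 was lower, and 14 of 19 in PyMT were higher and none was lower, with medians of 1.56 and 1.61. A total of 13 were higher in both. They included Glul, glutamine synthetase (2.28 and 1.85), the lymphangiogenic growth factor Vegfc (2.31 and 1.67), the taurine transporter Slc6a6 (1.61 and 2.53) and the Wnt antagonist Dkk2 (2.13 and 1.73). Cxcl12, the ligand of Cxcr4, was at 508 CPM against 247 in KPC (1.04, 0.89 to 1.18) and at 282 against 53.5 in PyMT (2.40, 2.26 to 2.53). In KPC its UMIs lay in 43.5% of arterial cells, 43.7% of capillary and 44.6% of tip-like cells, classes described below. After thinning to equal depth these were 40.5% (32.6 to 48.9), 30.2% (26.2 to 34.5) and 33.3% (30.6 to 36.1), with overlapping intervals. In PyMT the unthinned shares were 37.3%, 16.8% and 14.0%. Other KPC gate cells under the same venular and cycling limits stood at 339 CPM with 0 marker UMIs and 305 with 1. Both are above the 247 of all other gate cells. Not every listed marker followed, since the potassium channel gene Kcna5 stood at -1.25 and -0.41 and Igfbp3 at 0.19 and 0.07. Bmx, a tyrosine kinase of arterial endothelium, was too scarce over the gate to pass the filter, but was at 90.0 CPM in KPC arterial cells against 2.17, and at 21.5 against 0.749 in PyMT.

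Notch ligands stood higher in KPC, where 3 of 4 passed the 2-fold limit, and in PyMT 1 of 4 did. The medians were 1.43 and 0.83. Jag1 (chr2, 137081456 to 137116644, minus strand) was at 126 CPM against 30.0 in KPC (2.07, 1.76 to 2.38) and at 75.3 against 23.5 in PyMT (1.68, 1.42 to 1.93). Jag2 had ratios of 1.73 (1.36 to 2.08) and 0.87 (0.53 to 1.19). Dll4, the ligand that tip cells also carry, had the smallest contrast of these 3, at 1.13 (0.91 to 1.34) in KPC and 0.35 (0.17 to 0.52) in PyMT. Jag1 was thus the ligand that stood out in both libraries. Of 10 Notch receptors and modulators, none was higher in KPC and 1 in PyMT, the glycosyltransferase gene Lfng (1.13), which was the 1 lower gene of the list in KPC (-1.19, -3.47 to 0.38), there on 3 UMIs. Notch1 stood at 0.73 and 0.48, and Notch4 at 0.68 and 0.26. Among the 3 target genes compared, Hey1 (chr3, 8663359 to 8667256, minus strand) was higher in both, at 286 CPM against 53.1 in KPC (2.43, 2.22 to 2.63) and 151 against 65.3 in PyMT (1.21, 1.03 to 1.38). Nrarp, a feedback inhibitor of the pathway, stood at 0.89 and 0.59, and Hes1 at 0.29 and -0.19.

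Of 14 arterial transcription factors compared, 7 were higher in KPC and 3 in PyMT, and none was lower in either, with medians of 1.13 and 0.49. The 3 higher in both were Sox17, Klf4 and Epas1. Sox17 was at 440 CPM against 130 in KPC (1.76, 1.60 to 1.92) and at 209 against 89.7 in PyMT (1.22, 1.07 to 1.37). Klf4, which responds to shear stress, was at 963 against 279 (1.79, 1.68 to 1.90) and at 254 against 81.4 (1.64, 1.5 to 1.78). Epas1, a hypoxia-inducible factor abundant in endothelium, had ratios of 1.56 and 1.14. Mecom and Prdm16, a related pair of zinc finger factors, passed the limit in KPC (1.87 and 1.74) and stood at 0.79 and 0.41 in PyMT. None of the 3 venous transcription factors compared passed it in either library. In KPC cells with UMIs of at least 2 marker genes, 2 of the 3 were lower (median -1.12), beside 1086 of all 9491 genes. None passed it in the KPC Fbln5-alone cells (0.69). In PyMT 1 was higher and none lower in the first kind of cell (-0.46), and none passed it in the second (0.46). Nr2f2, which drives venous identity, was at 56.6 CPM in arterial cells against 55.4 in KPC and at 47.7 against 40.7 in PyMT. Its intervals included 0 in both (-0.44 to 0.46 and -0.09 to 0.53).

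Efnb2, which encodes ephrin-B2, the classic arterial ligand of the venous receptor Ephb4, was at 183 CPM against 46.7 in KPC (1.97, 1.71 to 2.22) and at 94.3 against 38.2 in PyMT (1.31, 1.08 to 1.52). It was the only one of the ephrin and Eph genes compared, 7 in KPC and 6 in PyMT, that was higher in both. Of 10 connexin and junction genes, Gja4 alone was higher in both. The broadly expressed connexin gene Gja1 stood at -0.30 and 0.01, and Cldn5, the main claudin of endothelial tight junctions, at 1.58 (1.44 to 1.71) in KPC and 0.47 (0.39 to 0.56) in PyMT. Of the guidance genes, 3 of 11 were higher in KPC (Unc5b 1.48, Plxna4 1.45 and Sema7a 1.16) and none of 10 in PyMT, and none was lower in either.

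Genes that set vascular tone differed in both directions. Of the list, 6 of 15 genes were higher and 2 lower in KPC, and 3 of 14 higher and 2 lower in PyMT. Edn1, the precursor of the vasoconstrictor endothelin-1, was at 279 CPM against 102 in KPC (1.45, 1.24 to 1.65) and at 149 against 29.6 in PyMT (2.33, 2.14 to 2.51). In KPC its UMIs lay in 34.8% of arterial cells and 43.0% of tip-like cells, a class described below. After thinning to equal depth these were 33.1% (25.6 to 41.3) and 28.5% (25.9 to 31.2), with overlapping intervals. In PyMT the unthinned shares were 29.3% of arterial, 14.2% of tip-like and 18.7% of venular cells. Ace, which makes angiotensin II, had ratios of 2.09 (1.86 to 2.32) and 1.41 (1.08 to 1.72), and Npr3, the clearance receptor of natriuretic peptides, 1.96 (1.12 to 2.71) and 2.38 (1.89 to 2.85). These 3 were higher in both. Nos3, endothelial nitric oxide synthase, stood at 0.99 and 0.36, while Nostrin, which traffics that enzyme, was lower in both (-1.21 and -1.04). Flow-responsive genes included 5 of 13 higher in KPC, 3 of 13 in PyMT and none lower, with medians of 0.99 and 0.59. Klf2, the best known of them, was at 2535 CPM against 866 in KPC (1.55, 1.48 to 1.62) and at 1008 against 514 in PyMT (0.97, 0.91 to 1.04). Heg1 (1.82 and 1.39), Cd59a (2.05 and 1.01) and Klf4 were higher in both.

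Klf2 and Klf4 are also early response genes, and cell dissociation is known to induce such genes. Of the immediate early and heat shock genes, 6 of 19 were higher in KPC and 3 of 18 in PyMT and none was lower, with medians of 0.87 and 0.60. Hspa8, a heat shock protein gene, stood at -0.23 and -0.16. Nr4a1 (1.14 and 1.64) and Hspa1a (1.77 and 1.47) were higher in both. The part of dissociation in the Klf2 and Klf4 values was not tested.

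BMP and ALK1 pathway genes had 6 of 14 higher in KPC and 2 of 11 in PyMT, none lower, and medians of 0.94 and 0.55. The inhibitory Smad7 (1.17 and 1.07) and the ligand Bmp4 (1.25 and 1.04) were higher in both, and Id1, a direct target, stood at 1.34 and 0.71. Bmp2 differed between the libraries, at 1.98 (1.39 to 2.53) in KPC and 0.08 (-0.14 to 0.29) in PyMT. Of the chemokine axis, Cxcl12 was the sole gene higher in both, though in KPC similar shares of capillary and tip-like cells held it. Ccl2 and Cxcl10 were at 2 UMIs each in the KPC arterial cells, with log2 ratios of -3.39 (-6.44 to -1.53) and -3.68 (-6.73 to -1.82), and stood at -0.25 and 0.20 in PyMT.

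Tip cell genes mark sprouting capillaries. In KPC 5 of 20 were lower and 2 higher, and in PyMT 1 of 20 was lower, Adm (-1.12), and none higher, with medians of -0.77 and -0.46. In cells with UMIs of at least 2 marker genes, 12 were lower and 3 higher in KPC, with a median of -1.37. In PyMT 10 were lower and 1 higher (-1.02). Of all genes, 1086 of 9491 and 660 of 9068 were lower in these cells. In the Fbln5-alone cells 5 were lower and 1 higher in KPC (-0.51), and none passed the limit in PyMT (-0.23). Over all arterial cells Apln, the ligand apelin, was at 75.9 CPM against 337 in KPC (-2.15, -2.54 to -1.78) and at 159 against 249 in PyMT (-0.65, -0.82 to -0.48). Its receptor gene Aplnr had ratios of -1.81 and -0.47, Angpt2 -1.06 and -0.44, and Esm1 -0.95 and -0.16. The 2 genes of the list that were higher in KPC, Unc5b and Dll4, are also known arterial genes. Glycolysis and hypoxia genes had medians of -0.38 and -0.29, with 2 of 19 lower in KPC, Hk2 (-2.35) and Ankrd37 (-1.27), and none of 18 past the limit in PyMT. Basement membrane genes had medians of -0.40 and -0.10. Col15a1 stood at -1.80 and -0.24, while Lamb2, a laminin chain, was higher in both (1.92 and 1.14).

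Of the mitosis genes 20 of 21 were lower in KPC and 18 of 21 in PyMT, and DNA replication genes had 13 and 9 of 20 lower. The rule kept cycling cells out of the arterial class and not out of the others, so these values follow from the choice of cells. Against the 5327 KPC and 7880 PyMT other cells held to the same venular and cycling limits, 23 genes were lower in both libraries in place of 153, and 106 were higher in both in place of 129. In that comparison Hbb-bs and Hba-a1, the hemoglobin chains of red blood cells, were the lowest. Hbb-bs had no UMI in KPC arterial cells, so that with a floor of 3 UMIs over the class it was at most 3.86 CPM against 71.2 in those other cells, a log2 ratio of at most -4.21. In PyMT it had 4 UMIs, at 2.05 CPM against 34.4 (-4.07).

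The arterial cells were not uniform. Arterial genes outside the rule mostly stood higher in cells with more marker UMIs, as the plot of levels by marker UMIs shows, but not at every step. In KPC the levels of Hey1, Sox17, Eln, Efnb2, Klf2 and Gja4, among others, were lower at 4 to 5 marker UMIs than at 3. Of the genes named, Sox17 alone had intervals that did not overlap (510 to 829 at 3 and 264 to 462 at 4 to 5). Cxcl12 was highest at 2 marker UMIs in KPC, at 645 CPM, and stood at 386 at 4 to 5, and in PyMT it stood at 340 at 3 and 278 at 4 to 5. From 1 to 2 marker UMIs, the step across the threshold, Gja4 went from 403 to 792 CPM in KPC and from 124 to 393 in PyMT. Sox17 went from 206 to 328 and from 105 to 152. Mgp did not follow this step, at 75.5 and 83.7 CPM in KPC and 43.9 and 34.1 in PyMT. It was high in the cells with at least 6 marker UMIs, 90 in KPC and 62 in PyMT, where it stood at 5201 and 2424 CPM. The median depth of these cells was 2217 UMIs in KPC and 3354.5 in PyMT, against 2248 and 3533.5 in cells with 2 marker UMIs.

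**Figure D3:**
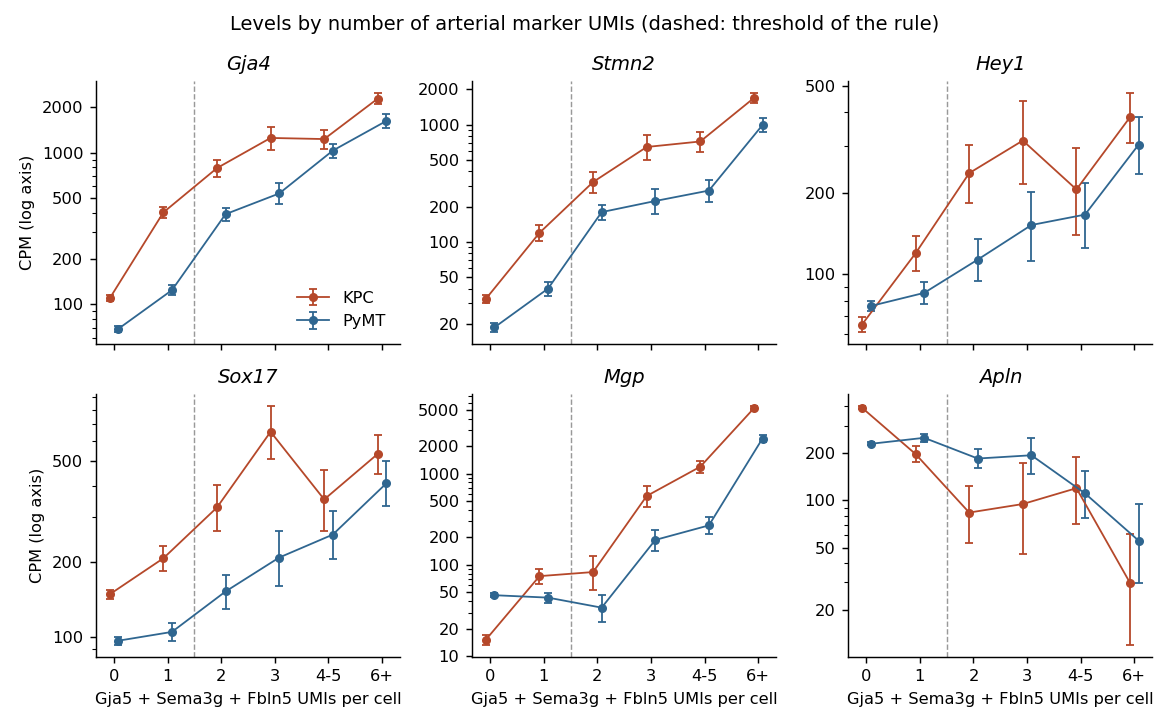
CPM (log axis, exact 95% Poisson intervals) of Gja4, Stmn2, Hey1, Sox17, Mgp and Apln in gate cells by their summed UMIs of Gja5, Sema3g and Fbln5, in KPC (red) and PyMT (blue), under the same limits on venular and cycling genes. Gja4 stands at 403 CPM at 1 marker UMI and 2282 at 6 or more in KPC, and at 124 and 1623 in PyMT.

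Cells with at least 2 marker genes, called 2-marker cells here, differed from cells that entered by Fbln5 alone. Gja4 was at 2111 CPM in the 2-marker cells of KPC and 726 in the Fbln5-alone cells, and at 1411 and 172 in PyMT. The log2 ratios between these groups were 1.54 (1.33 to 1.75) and 3.03 (2.81 to 3.26). Stmn2 showed the same order, at 1358 and 423 CPM in KPC and 715 and 86.1 in PyMT. For Hey1 the ratios were 0.73 (0.31 to 1.16) and 1.93 (1.54 to 2.33), and for Eln 1.54 (1.23 to 1.86) and 1.28 (0.89 to 1.68). Cxcl12 differed less between the groups, by 0.06 in KPC and 0.69 in PyMT.

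In PyMT the Fbln5-alone cells had intervals that included 0 for Hey1 and Jag1. Their Hey1 level was 70.0 CPM against 65.3 (0.10, -0.22 to 0.41) and their Jag1 level 22.5 against 23.5 (-0.06, -0.66 to 0.48). The ligand Dll1 (1.11, 0.36 to 1.77) and the modulator Lfng (1.03, 0.10 to 1.83) passed the 2-fold limit in them, on 19 and 13 UMIs. In KPC the Fbln5-alone cells were above the other gate cells for both genes, by 1.98 and 1.37. Gja4 and Eln remained higher in the PyMT Fbln5-alone cells, by 1.41 (1.21 to 1.61) and 2.40 (2.09 to 2.70). The median of the arterial transcription factors was 1.04 in PyMT 2-marker cells and 0.17 in Fbln5-alone cells, and 1.44 and 0.80 in KPC. In the PyMT Fbln5-alone cells 1 of 14 arterial transcription factors, 0 of 3 Notch targets and 9 of 19 other arterial markers were higher. Genes outside the rule thus bore out the arterial label in part only for these 286 cells, which were 61.2% of the PyMT members. In the KPC Fbln5-alone cells 5 of 14 arterial transcription factors, 1 of 3 Notch targets and 13 of 20 other arterial markers were higher. These KPC cells also held lymphatic and venule transcripts, given below. In PyMT 125 genes of all kinds were higher in the Fbln5-alone cells than in the other gate cells, against 541 in the 2-marker cells, and in KPC 520 against 712. The Fbln5-alone cells held 1243089 UMIs in PyMT and the 2-marker cells 549431, against 362050 and 353416 in KPC, so that the PyMT counts rest on unequal sums.

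Genes of other vessels were unequally spread as well. Nr2f2 stood at 25.5 CPM in the 2-marker cells of both libraries, and at 96.7 in KPC and 61.9 in PyMT Fbln5-alone cells. The venule gene Lrg1 followed the same order, at 504 and 1458 CPM in KPC and 746 and 1449 in PyMT. Ccl21a, a chemokine of lymphatic endothelium, was at 45.3 CPM in 2-marker and 627 in Fbln5-alone cells of KPC, and at 94.6 and 498 in PyMT. Prox1, which defines lymphatic endothelium, was at 5.66 and 55.2 in KPC and at 9.10 and 21.7 in PyMT. The Fbln5-alone cells thus held the higher level of each of these 4 genes in both libraries. Of 7 lymphatic genes compared in KPC, 5 were higher in the Fbln5-alone cells (median 1.47), beside 520 of all 9491 genes. In the KPC 2-marker cells 2 of the 7 were lower and none higher (0.10). In the PyMT Fbln5-alone cells 1 of 6 was higher (0.78), beside 125 of all 9068 genes. Of 22 venule genes, 3 were higher and 3 lower in the KPC Fbln5-alone cells (0.33).

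**Figure D4:**
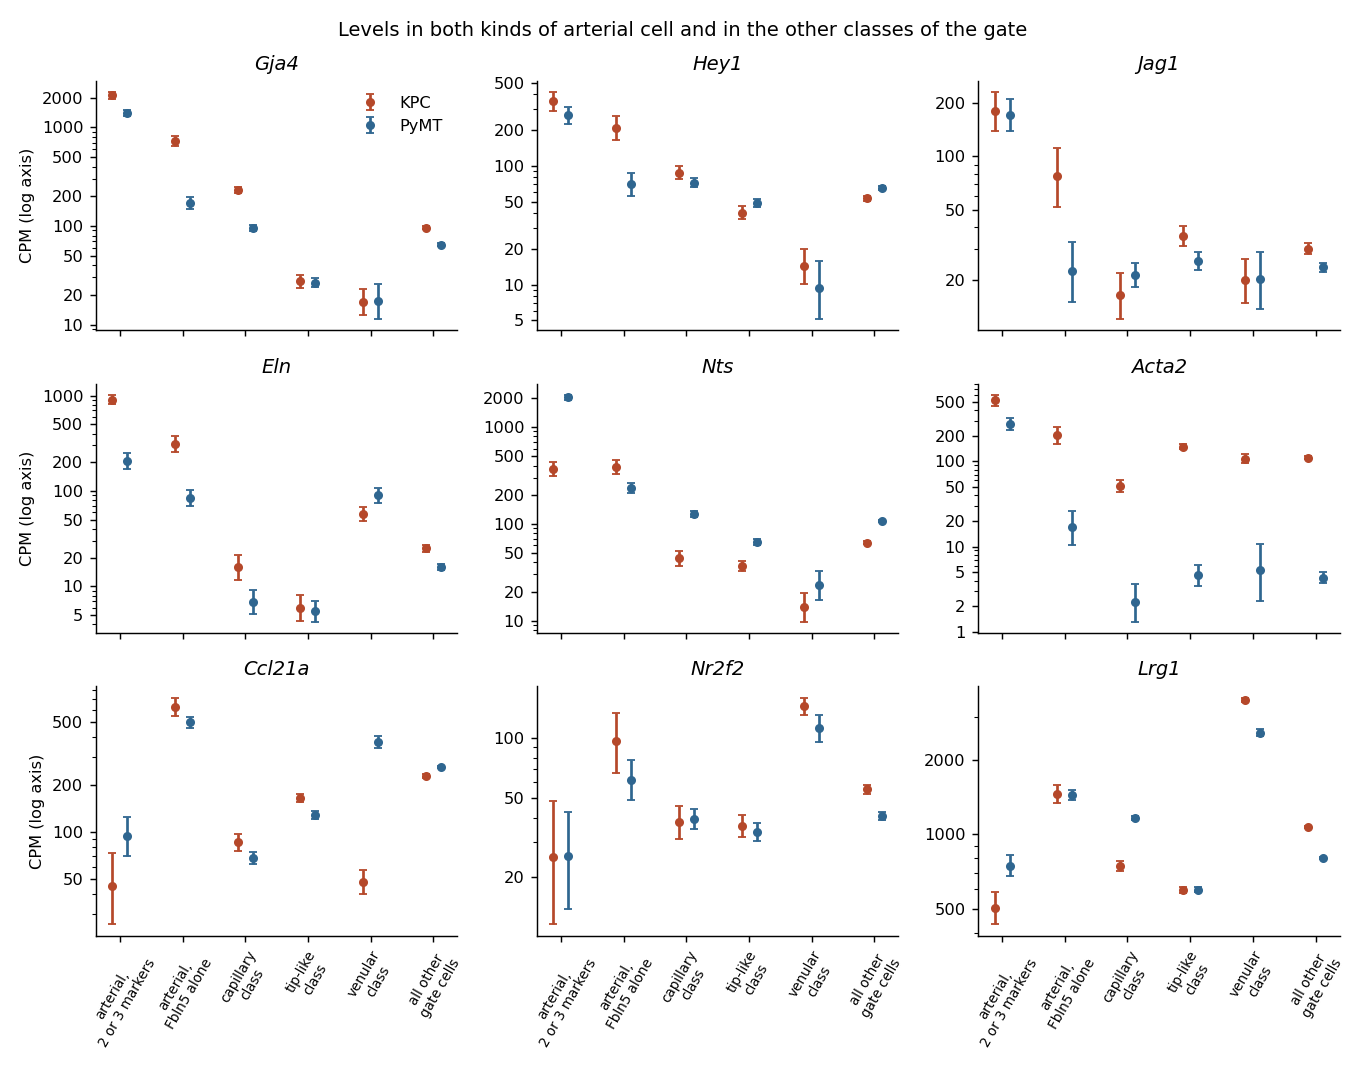
CPM (log axis, exact 95% Poisson intervals for counting error) of 9 genes, for KPC (red) and PyMT (blue). The classes are both kinds of cell that met the arterial rule, the capillary, tip-like and venular cells and all other gate cells. Gja4 is highest in the 2-marker cells (2111 and 1411 CPM), and Ccl21a and Nr2f2 are higher in the Fbln5-alone cells than in the 2-marker cells of both libraries.

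Levels were set beside 3 other classes of the gate, each held to at most 1 arterial marker UMI and 1 proliferation UMI. They were venular cells with at least 2 UMIs of Ackr1 and Selp (623 in KPC and 369 in PyMT), tip-like cells with at least 2 of Apln and Angpt2 (1270 and 2135) and capillary cells with at least 2 of Car4 and Cd300lg (1134 and 1713). Gja4 followed the order arterial, capillary, tip-like and venular in both libraries. In KPC its levels were 1390, 232, 27.4 and 17.1 CPM, and in PyMT 670, 94.96, 26.7 and 17.5, where the intervals of the last 2 overlapped. Hey1 had the same order, with arterial over capillary ratios of 1.71 (1.44 to 1.98) and 1.07 (0.86 to 1.28) and arterial over venular ratios of 4.31 (3.80 to 4.85) and 4.01 (3.24 to 4.90). Capillary cells were thus the nearest class for these 2 genes.

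For Eln and Mgp the nearest class was the venular one. Eln was at 57.9 CPM in venular cells of KPC and 90.0 in PyMT, so that the arterial over venular ratio was 3.27 (3.0 to 3.55) in KPC and 0.32 (0.00 to 0.64) in PyMT. By share of cells the order in PyMT was the reverse, with Eln UMIs in 13.3% of arterial and 21.7% of venular cells, and 7.38% (4.92 to 10.6) and 13.2% (9.54 to 17.6) after thinning. Of its 219 arterial UMIs in PyMT, 103 were in the 62 cells with at least 6 marker UMIs. Mgp had ratios of 3.12 and 0.86 over venular cells. In PyMT the shares of cells with an Mgp UMI were close, at 14.99% of arterial and 13.82% of venular cells, or 8.197% and 8.108% after thinning, and 569 of its 752 arterial UMIs were in the 62 cells with at least 6 marker UMIs. For Fbln2 it was the capillary class in KPC, with a ratio of 0.84 (0.66 to 1.02), and the venular class in PyMT, with 0.29 (-0.03 to 0.61). Vwf, the clotting factor carrier that marks larger vessels, was above the other gate cells as a whole (1.44 and 0.78) but not detectably above the venular cells at this depth, with ratios of 0.16 (-0.08 to 0.40) and 0.10 (-0.11 to 0.30).

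Transcripts of mural cells, the smooth muscle cells and pericytes that wrap arteries, were counted in the same cells. Of the 14 listed mural genes, 5 of 8 compared in KPC were higher and 1 lower, and 3 of 6 in PyMT were higher, but Des in KPC and Acta2 in PyMT reached the filter through the arterial cells alone. The median of the list in KPC was 1.31, and it was -0.22 with cells thinned to 2000 UMIs after the rule. Their summed level was 864 CPM in arterial cells against 488 in KPC, and 324 against 146 in PyMT. The most abundant was Acta2, smooth muscle actin, at 336 against 110 CPM in KPC (1.60, 1.42 to 1.79) and at 103 against 4.34 in PyMT (4.57, 4.28 to 4.86). Myh11, the smooth muscle myosin, was below the filter and stood at 18.0 CPM in KPC arterial cells against 1.19 (3.92, 2.90 to 4.86), on 14 UMIs, and at 3.07 against 0.107 in PyMT (4.85, 2.87 to 6.90), on 6 UMIs. These UMIs lay in 7 of the 299 KPC cells and 2 of the 467 PyMT cells. The pericyte receptor gene Pdgfrb was at 2.57 against 3.04 CPM and at 3.59 against 2.37. Cnn1 had no UMI in the arterial cells, and 8 and 1 UMIs in the other gate cells. Acta2 UMIs were found in 50 arterial cells of KPC, at up to 30 UMIs per cell, of which 24 also had a UMI of the smooth muscle gene Tagln and 7 one of Myh11, Cnn1, Pdgfrb or Cspg4. In PyMT they were found in 32 cells, at up to 50 per cell, of which 11 also had Tagln and 3 one of these 4 genes. Rgs5, a pericyte gene and 1 of the 15 highest genes, had its 159 UMIs in 16 KPC cells and its 61 UMIs in 17 PyMT cells. With Fbln5 left out of the rule the Rgs5 ratio in PyMT was 0.47 in place of 2.51.

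Cells with any UMI of Rgs5, Myh11, Pdgfrb, Cspg4, Cnn1, Prox1 or Lyve1 made up 11.4% of arterial and 11.1% of other gate cells in KPC, and 9.85% and 7.79% in PyMT. Without them the log2 ratio of Acta2 was 2.29 in KPC and 4.42 in PyMT. Gja4 stood at 3.88 and 3.47, Stmn2 at 4.70 and 3.83, Eln at 4.66 and 3.21, Mgp at 5.25 and 2.69 and Hey1 at 2.44 and 1.21, so that these ratios were as large as before to 2 decimals, or larger. Of the genes higher in both libraries, 103 of 129 were among the 114 found without these cells. Ccl21a turned from 0.43 to -0.27 in PyMT and went from 0.48 to 2.39 in KPC.

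Genes of other cell types were summed in the same way. Of 8 epithelial and tumor cell genes compared in KPC, 7 were lower, with a summed level of 185 CPM against 1084 and a median of -2.27, which turned to 0.65 without the 8% of cells with the most UMIs. In PyMT the sums were 37.4 and 44.5. The keratin gene Krt8 was at 30.9 against 296 CPM in KPC. Red blood cell genes summed to 1.29 against 86.8 CPM in KPC and to 2.05 against 59.6 in PyMT. Immune genes summed to 61.7 against 67.4 and to 25.1 against 38.0 CPM, with Cd3e and Cd79a at 0 in both libraries. Lymphatic and fibroblast genes had higher sums in the arterial cells of both libraries. Lymphatic genes summed to 489 against 340 and to 459 against 360 CPM, with Ccl21a the most abundant and no listed gene at 0, and 3 of the 7 compared in KPC were higher (Prox1, Pdpn and Reln). Fibroblast genes summed to 180 against 57.4 and to 90.2 against 54.1 CPM. The most abundant was Pi16 in KPC, at 73.3 against 1.12, and Mmp2 in PyMT, at 26.1 against 5.05, while Dpt was at 0 in both. The part of fibroblast transcripts in the Mmp2 and matrix values was not tested. Genes that define endothelium and lie outside the gate summed to 5120 against 4920 CPM in KPC, where Cldn5 was higher and Emcn lower (-1.02), and to 4581 against 4182 in PyMT, where none of 10 passed the limit.

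Differences between the libraries were ranked among genes of at least 20 CPM over all gate cells in both. There, those with the largest excess of the KPC over the PyMT ratio were Mgp, Fn1, Atp13a3, S100a4 and Cald1. Fn1, fibronectin, had ratios of 1.82 (1.65 to 1.99) in KPC and 0.31 (0.18 to 0.44) in PyMT. Its arterial levels were 394 and 280 CPM, and its levels in the other gate cells 111 and 226. Atp13a3, a polyamine transporter, stood at 3.13 and 1.67, S100a4 at 2.42 and 0.99 and the actin-binding Cald1 at 1.71 and 0.28. At the other end were Cxcl10, Ccnb1, Ccl2, Mt1 and Pimreg, each with at most 5 UMIs in the KPC arterial cells. Mt1, a metallothionein, stood at -2.85 (-4.47 to -1.62) in KPC and -0.15 (-0.55 to 0.22) in PyMT. As the markers that admitted the cells also differed between the libraries, the make-up of the class and the tumor model cannot be told apart in these values.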

How the data were processed

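Sorted BECs of KPC and PyMT tumors were sequenced on a droplet platform, 1 library for each model. Reads were aligned to mm10 and UMI counts obtained by the authors with Cell Ranger (3.0 per the labels, 3.0.2 in the matrix header). The deposited values are raw UMI counts that were not normalized. Sources differ on the version of the library kit, and how many mice contributed to a library is not given in the sources used here.

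The members and the 36 gene lists were chosen with earlier results of these data known. The 35 symbols that occur more than once among 31055 features were summed. UMIs were summed per class, scaled to CPM and compared as log2 ratios with exact intervals, for each library on its own, so no p-value was computed. Named genes were the 15 highest and 12 lowest by the smaller ratio of both libraries, the 5 genes at each end of the difference between libraries among genes of at least 20 CPM over all gate cells in both, and members of the lists. Of the 12 lowest genes, 2 encode hemoglobin chains and the others act in the cell cycle, so that just a few were described. Other list members and genes under the filter were named after their values were seen. Gene positions are those of GRCm38. Shares were also computed after thinning each cell to 2000 UMIs (seed 0), leaving out shallower cells. Scrublet, with an expected rate of 8%, marked 0 cells in either library and therefore did not work, so doublets remain. The ratios and their intervals were tested on counts simulated with Poisson error alone, which leaves out variation between cells. The choice of cells and the thinning were not tested in this way. Python 3.11.15, numpy 2.4.6, scipy 1.17.1, pandas 2.3.3 and scanpy 1.11.5 were used.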

Additional observations from a re-analysis of the deposited data

Results flagged for a closer look

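Of the list genes and named genes with a ratio of at least 2-fold in either library, 7 had intervals wholly on opposite sides of 0, with higher levels in the PyMT arterial cells and lower ones in the KPC arterial cells relative to the other gate cells of each. The share of all compared genes that meet this condition is not given here, so the count of 7 is a description only. With 1 library per model these differences were not tested. Tagln, a smooth muscle cytoskeletal gene, had a log2 ratio of -0.65 in KPC and 2.54 in PyMT. Fabp5, a fatty acid binding protein, stood at -1.12 and 1.16, and the water channel gene Aqp1 at -0.24 and 1.29. Ptgs1, which makes prostanoid precursors, had ratios of -1.24 and 0.50, the TGF-beta co-receptor gene Tgfbr3 of -1.05 and 0.63, and the matricellular gene Ctgf of -1.02 and 0.53. Cxcl9 had no UMI in the KPC arterial cells, which puts its ratio at most at -1.76, and stood at 0.63 in PyMT.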

How the results depend on the processing

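No paired analysis was possible because each tumor model has 1 library. Of the values of named genes under all alternatives, 792 moved by less than their interval, 359 moved by more and 1 changed sign. The arterial share of gate cells (4.15% in KPC and 4.51% in PyMT) was 2.78% and 2.15% with at least 3 marker UMIs, 2.00% and 1.36% with UMIs of at least 2 marker genes, 1.22% and 1.13% with the rule without Fbln5, 3.55% and 4.08% with limits of 1000 genes and 5% mitochondrial UMIs, 2.23% and 2.00% after thinning before the rule, and 3.20% and 3.98% after thinning following the rule. Without Gja5 it was 3.75% in PyMT.

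Counts of genes past the limit are given as higher in KPC, PyMT and both, then lower in KPC, PyMT and both, where they moved by over 1.5 times. With at least 3 marker UMIs, 390 were higher in PyMT and 201 in both, and 481 lower in PyMT. With at least 2 marker genes these were 529, 251 and 657, and 271 were lower in both. Without Fbln5, 850, 584 and 255 were higher and 1119, 929 and 312 lower. With the other cells held to the venular and cycling limits, 88 were lower in PyMT and 23 in both. Thinning before the rule gave 965, 564 and 211 higher and 707 lower in PyMT, and thinning after it 292 higher and 466 lower in PyMT. With no filter 1687, 1456 and 520 were higher and 513 lower in PyMT, and with a 20 CPM filter 188, 57 and 42 were higher and 277, 81 and 69 lower, since the filter sets how many genes are compared. A fold of 1.5 gave 1259, 666 and 358 higher and 1452, 598 and 356 lower. Requiring the whole interval beyond a log2 ratio of 1 gave 173, 90 and 61 higher and 140, 65 and 39 lower.

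In KPC, 3 values changed sign. They were Ccnf against the held cells (0.25), the median of mural genes after thinning following the rule (-0.22) and the median of epithelial and tumor genes without the highest 8% of UMIs (0.65), and the cause was not tested. The removal of cells with a mural or lymphatic UMI was chosen after seeing the data. Depth limits genes near 3 UMIs in a class, which is 3.86 CPM in KPC arterial cells and 1.54 in PyMT.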

Other observations

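MHC class I genes had medians of 0.05 in KPC and 0.35 in PyMT over 12 genes compared, with none past a 2-fold ratio in either. Interferon-stimulated genes had medians of 0.01 and 0.47 over 20 genes, with Ifi27l2a higher in KPC (1.56), Gbp4 higher in PyMT (1.03), and Cxcl10 and Cxcl9 lower in KPC. In PyMT, where the median over all genes was 0.02, all 20 of these genes and 11 of the 12 MHC class I genes had ratios above 0. In the 2-marker cells of PyMT 7 of the 20 were at least 2-fold higher, with a median of 0.69, beside 541 of all 9068 genes. The 2-marker cells of KPC had 1 of the 20 higher and 2 lower, with a median of -0.23. Of all 9491 genes, 712 were higher and 1086 lower in these cells. Venule genes outside the rule had 3 of 22 higher and 5 lower in KPC and 1 of 19 higher and none lower in PyMT, with medians of -0.08 and 0.23, and Vcam1, an adhesion receptor for leukocytes, was the one gene of that list higher in both libraries (1.34 and 1.01).

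Of the integrin genes, the laminin-binding subunit Itgb4 was higher in both libraries, at 75.9 CPM against 18.1 in KPC (2.06, 1.65 to 2.46) and at 22.5 against 5.45 in PyMT (2.05, 1.55 to 2.51). Vegfc was the one VEGF gene higher in both, and Ptprb, a phosphatase that acts on the Tie2 receptor, the one angiopoietin and Tie gene (1.02 and 1.27). Coagulation genes had 2 of 14 higher and 4 lower in KPC and 1 of 13 higher in PyMT, with medians of -0.04 and 0.15. TGF-beta pathway genes had 2 of 13 higher and 2 lower in KPC and 1 of 13 higher in PyMT, with medians of 0.27 and 0.47. Angiopoietin and Tie genes had 1 of 5 higher and 2 lower in KPC and 1 of 5 higher in PyMT, with medians of 0.43 and 0.23. Integrins had 1 of 11 higher and 1 lower in KPC and 1 of 11 higher in PyMT, with medians of 0.12 and 0.11, and VEGF genes had 1 of 8 higher in each, with medians of -0.12 and -0.08. None of these genes was at least 2-fold lower in PyMT, and no VEGF gene in KPC. Capillary lipid and transport genes had medians of -0.28 in KPC, with 3 of 14 higher and 4 lower, and 0.77 in PyMT, with 3 of 15 higher and none lower. Gpihbp1, which anchors lipoprotein lipase in capillaries, stood at -1.06 in KPC and -0.11 in PyMT, and Cd36, a fatty acid transporter, at 1.06 and 0.86.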
